A study of Drosophila melanogaster with 5 samples.

Results

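The genes examined were 10 components of the BMP pathway of Drosophila: the ligands dpp and gbb, the receptors tkv, sax and put, the Smads Mad and Med, the nuclear factors shn and brk, and the inhibitory Smad Dad. Their accessible chromatin was taken as the ATAC-seq peaks that overlapped the gene body with 5 kb to each side, a rule that uses positions alone. Such peaks numbered 47 in progenitor cells, 44 in ECs, 45 in EEs, 24 in Ttk-depleted ECs and 40 in Pros-depleted EEs, of 9311, 10048, 9048, 3269 and 8466 peaks in all. Merged over the 5 libraries, they formed 56 of 15196 regions. Of the 56 regions, 34 had a peak in each of the 3 normal cell types (60.7%, 95% Wilson interval 47.6 to 72.4), where 36.3% of all regions with a normal peak did. The start site of brk was under a peak in all 5 libraries, whereas the start site of Med was under none.

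ATAC-seq inserts sequencing adapters into open DNA with the Tn5 transposase, and MACS3 calls a peak where fragments exceed the local background. The 5 populations were sorted from pools of 100 to 150 dissected adult guts: progenitor cells (esg-Gal4ts, UAS-GFP), EEs, the hormone-secreting enteroendocrine cells (prosV1-Gal4ts, UAS-GFP), ECs, the absorptive enterocytes (Myo1A-Gal4ts, UAS-GFP), EEs depleted of the transcription factor Pros (prosV1-Gal4ts with UAS-GFP and UAS-pros-RNAi) and ECs depleted of the repressor Ttk (Myo1A-Gal4ts with UAS-GFP, UAS-ttk-RNAi and pros-mCherry). In each of them GAL4 was held inactive by a temperature-sensitive GAL80 at 18 °C and released by moving adults of 5 to 7 days to 29 °C. About 40000 cells were sorted per sample by GFP, apart from the Ttk-depleted ECs, which were sorted as weakly GFP-positive and mCherry-positive, the mCherry being joined to Pros. The esg driver marks stem cells together with their enteroblast daughters. With 1 library per population, no difference between populations has a replicate check, and the intervals given for shares cover counting error only.

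BMP ligands bind a complex of type I and type II receptors, which phosphorylates the Smad Mad. Phosphorylated Mad enters the nucleus with its partner Medea (Med), where both activate targets such as Dad or, together with Schnurri (shn), silence brk. The product of brk is a repressor that keeps BMP targets off where signalling is low. In the adult midgut the pathway is known for its part in stem cell maintenance and in the identity of the acid-secreting copper cells.

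The sequences below carry the pattern of sharing at these genes and the motifs of the factors that act on them. Each was read from the plus strand of the RefSeq copy of Release 6 of the genome, which has the coordinates of BDGP6, and each run of 300 bases is centred on the summit of a region. Regions are numbered along the chromosome within each gene. The region tkv-8 reached the highest percentile of the regions with a peak in all 3 normal cell types, tkv-2 the highest of those with a peak in 1 of them, and brk-3 held a match to the silencer motif. The regions Mad-3 and Dad-5 were added after their values were seen, Mad-3 because it had no peak in EEs and Dad-5 because it combined high ranks in every library with a Mad match. Capitals mark matches, on either strand, to the Mad motif GCCGNCGC, to the Brinker motif (GGCG followed by CC, CT, TC or TT) or to the silencer motif bound by Mad, Medea and Schnurri (GNCGNC, 5 bases, then GTCTG). The windows of tkv-8, tkv-2 and Mad-3 held no match to any of these.
tkv-8 (chr2L:5256445-5256744, intron of tkv): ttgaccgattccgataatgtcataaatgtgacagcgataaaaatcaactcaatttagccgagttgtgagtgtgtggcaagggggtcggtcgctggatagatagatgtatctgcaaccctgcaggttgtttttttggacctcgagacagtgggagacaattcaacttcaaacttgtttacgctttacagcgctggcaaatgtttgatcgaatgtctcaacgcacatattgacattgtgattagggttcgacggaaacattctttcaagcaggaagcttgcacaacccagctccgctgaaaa
tkv-2 (chr2L:5225434-5225733, intron of tkv): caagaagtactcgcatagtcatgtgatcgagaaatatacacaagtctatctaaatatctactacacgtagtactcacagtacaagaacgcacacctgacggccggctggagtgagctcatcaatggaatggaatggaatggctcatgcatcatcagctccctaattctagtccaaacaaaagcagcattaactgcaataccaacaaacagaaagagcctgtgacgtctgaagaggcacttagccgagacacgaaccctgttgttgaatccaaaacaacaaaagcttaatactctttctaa
Mad-3 (chr2L:3151091-3151390, intron of Mad): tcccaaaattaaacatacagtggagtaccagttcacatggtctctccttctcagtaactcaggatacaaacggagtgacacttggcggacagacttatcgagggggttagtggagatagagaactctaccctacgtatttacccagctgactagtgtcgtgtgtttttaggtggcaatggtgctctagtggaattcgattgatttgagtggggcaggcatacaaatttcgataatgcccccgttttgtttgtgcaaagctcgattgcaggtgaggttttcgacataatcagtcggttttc
Dad-5 (chr3R:17065253-17065552, intron of Dad): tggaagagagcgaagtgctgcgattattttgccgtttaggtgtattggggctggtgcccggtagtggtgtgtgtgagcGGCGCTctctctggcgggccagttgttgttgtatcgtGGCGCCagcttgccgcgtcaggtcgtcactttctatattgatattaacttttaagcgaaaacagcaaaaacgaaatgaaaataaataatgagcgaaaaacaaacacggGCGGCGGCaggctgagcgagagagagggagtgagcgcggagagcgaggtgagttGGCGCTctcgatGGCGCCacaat
brk-3 (chrX:7307532-7307831, upstream of the brk start site): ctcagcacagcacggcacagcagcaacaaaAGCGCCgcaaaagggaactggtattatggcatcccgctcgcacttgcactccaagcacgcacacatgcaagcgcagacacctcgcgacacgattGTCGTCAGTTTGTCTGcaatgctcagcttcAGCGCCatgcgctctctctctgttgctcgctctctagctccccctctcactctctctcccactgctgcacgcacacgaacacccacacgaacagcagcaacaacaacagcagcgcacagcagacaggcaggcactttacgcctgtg

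The Mad and silencer matches that lay anywhere inside the regions of these members are shown next with their flanks, 30 bases each, for the genes on the chromosome arms 2L, 3R and X. Capitals mark the match or the overlapping matches.
dpp-2 Mad matches (chr2L:2454808-2454837): acgttgagtcGCCGCCGCCGCgaaagatac
Mad-1 Mad match (chr2L:3145397-3145426): taagctcctgcGCCGACGCcgatagctccg
Mad-5 Mad match (chr2L:3158744-3158773): aagattcgagcGCCGCCGCgctgtttatta
Dad-3 Mad match (chr3R:17059799-17059828): gctcactgtgcGCCGCCGCcttgacttttg
Dad-5 Mad match (chr3R:17065465-17065494): aacaaacacggGCGGCGGCaggctgagcga
Dad-8 Mad match (chr3R:17074817-17074846): gataaataaccGCCGACGCatgacccgatc
Med-1 Mad and silencer matches (chr3R:31606923-31606952): actgcaGCGTCGGCTGAGCGTCTGaggagc
brk-3 silencer match (chrX:7307649-7307678): cacgattGTCGTCAGTTTGTCTGcaatgct
brk-3 Mad match (chrX:7307858-7307887): agtcgacggcgGCGCCGGCagcgacgccgg

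The depth of the libraries differed. Summits held a median of 103 fragments in the progenitor library, 65 in that of EEs, 52 in those of ECs and Pros-depleted EEs, and 8 in that of Ttk-depleted ECs, as worked out from each peak's fold enrichment and -log10 p. The median peak width was between 476 and 591 bp in 4 libraries and 129 bp in Ttk-depleted ECs. An absent peak in that library may therefore be a matter of depth, and its part in each loss below cannot be told apart from the depletion. Fold enrichment was ranked within each list, and the percentile of a peak is the share of peaks of its own library with a fold enrichment at or below its own. Markers of the sorted cells did not separate the populations by the presence of a peak, apart from AstC, a hormone of EEs, with 2 peaks in EEs, 1 in Pros-depleted EEs and none in the other libraries. The progenitor markers esg, Delta, Sox100B and klu had a peak in 4 of 4 genes in the 4 deeper libraries, the EE markers pros, Tk, AstC and Rab3 in 3 to 4 of 4, and the EC markers nub, Myo31DF and mex1 in 3 of 3. In Ttk-depleted ECs 3 of 4, 2 of 4 and 2 of 3 had one. Of 8 markers of visceral muscle, trachea, neurons and haemocytes, 7 had a peak in progenitor cells, 8 in ECs, 8 in EEs, 4 in Ttk-depleted ECs and 8 in Pros-depleted EEs. The highest percentile at each of these 8 genes had a median of 70.1 in progenitor cells, 57.0 in ECs, 81.4 in EEs, 4.39 in Ttk-depleted ECs and 75.9 in Pros-depleted EEs, and the part of such cells in the results was not tested.

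All 10 genes had at least 1 peak in progenitor cells, where 76.5% of protein-coding genes had one under the same rule. The same held in EEs (background 76.5%), ECs (80.3%) and Pros-depleted EEs (74.4%). Long windows hold more peaks, and among genes with windows between 11686 and 68309 bp, the range of the members, the background rose to 84.7%, 85.1%, 87.6% and 82.7%. A peak in each of the 3 normal cell types was found at all 10 genes, beside 68.5% of all genes and 77.4% of those in the size range. These counts are near the background. In Ttk-depleted ECs, 8 of 10 genes had a peak, with gbb and sax the exceptions, where 31.9% of all genes and 38.1% of those in the size range had one. These 8 genes had a peak in all 5 libraries, as 29.5% of all genes did. Peak numbers per gene ranged from 1 to 12 in the 4 deeper libraries. Per 10 kb of window there were 1.61 peaks in progenitor cells, 1.51 in ECs, 1.54 in EEs, 0.823 in Ttk-depleted ECs and 1.37 in Pros-depleted EEs, summed over the members. The median over single members was 2.16, 1.66, 1.66, 0.649 and 1.503, where the median over genes in the size range was 1.28, 1.28, 1.25, 0 and 1.09 and that over all genes 0.960, 0.948, 0.940, 0 and 0.910.

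**Figure D1:**
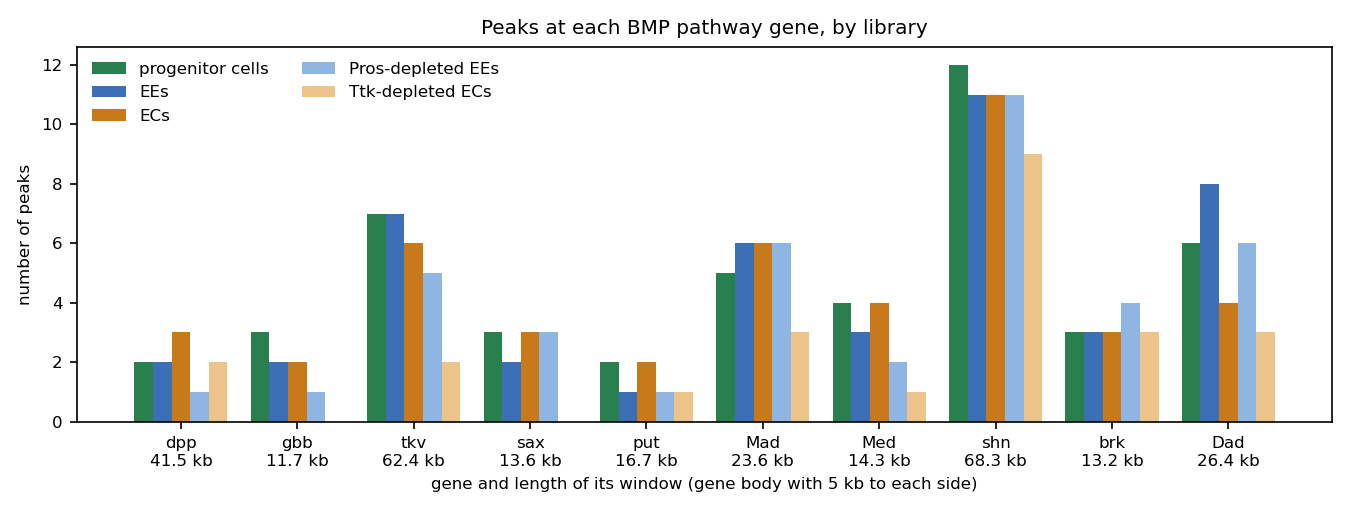
Number of ATAC-seq peaks (vertical axis) that overlap each of the 10 BMP pathway genes with 5 kb to each side (horizontal axis, with the length of the window), 1 bar per library. The 12 progenitor peaks at shn are the most at any gene, and no bar stands at gbb and sax for Ttk-depleted ECs.

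The ligand dpp (chr2L:2428372-2459823, plus strand) encodes the fly counterpart of BMP2 and BMP4. It has 4 annotated start sites, and the 2 most upstream of them were under no peak in any library. The start site at 2454737 was under a peak in each library but Ttk-depleted ECs, whose narrow peak lay beside it in the same region. This region, dpp-2, had percentiles of 74.1 in progenitor cells, 84.1 in ECs, 96.2 in EEs, 64.9 in Ttk-depleted ECs and 77.5 in Pros-depleted EEs. It was the highest-ranked region of dpp in EEs, with a fold enrichment of 8.81 and 117 fragments at its summit. The other promoter region, dpp-1, ranked at 65.4 in progenitor cells and 84.9 in ECs but at 8.62 in EEs, with no peak in Pros-depleted EEs and a percentile of 11.7 in Ttk-depleted ECs. The summit counts behind dpp-1 were 110 fragments in progenitor cells, 104 in ECs, 29 in EEs and 6 in Ttk-depleted ECs. The remaining region, dpp-3, lay in an exon and was seen in ECs alone at a percentile of 26.2.

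The other ligand, gbb (chr2R:23851562-23853247, plus strand), encodes a relative of BMP5 to BMP8. Neither of its 2 regions had gbb as the nearest start site. The region gbb-1, between gbb and its neighbours ytr and eIF6, had percentiles of 59.3 in progenitor cells, 12.9 in ECs, 13.9 in EEs and, after Pros depletion, 50.5, and no peak in Ttk-depleted ECs. The gbb start site itself lay under a peak in progenitor cells and in Pros-depleted EEs and under none in the other 3 libraries. This contrast rests on the edges of peaks. The peak of Pros-depleted EEs ended at 23851581, just past the start site at 23851562, and a peak of ECs ended at 23851539, just short of it. The summit behind the percentile of gbb-1 lay 98 bp from the start site of ytr in progenitor cells. In ECs, EEs and Pros-depleted EEs it lay 3, 12 and 8 bp from that of eIF6. These percentiles therefore compare peaks at different start sites. Since gbb shares this stretch with the divergent start site of ytr, a peak over the gbb start site cannot be assigned to one of them. The other region, gbb-2, lay 22 bp from the start site of Pym and had peaks in progenitor cells and EEs.

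The type I receptor tkv (chr2L:5219000-5271384, minus strand) had 10 regions, 4 of them with a peak in all 3 normal cell types. In progenitor cells and ECs its highest-ranked region was tkv-8. This intronic region lay 12456 bp upstream of the nearest tkv start site, with that of Cyp4ac1 nearer at 7406 bp. Its percentile was 98.3 in progenitor cells, 99.1 in ECs, 51.1 in EEs, 69.4 in Ttk-depleted ECs and 88.0 in Pros-depleted EEs. The fold enrichment at tkv-8 was 14.2 in progenitor cells, 9.31 in ECs, 3.94 in EEs, 5.96 in Ttk-depleted ECs and 6.73 in Pros-depleted EEs, so that EEs were lowest on both scales. The intronic region tkv-3 lay between the percentiles of 90.6 and 94.6 in all 5 libraries and ranked above tkv-8 in EEs, Ttk-depleted ECs and Pros-depleted EEs. A further intronic region, tkv-2, had a peak in EEs at a percentile of 56.02 and in Pros-depleted EEs at 64.5, and in no other library. The start site nearest to tkv-2 was that of TpnC25D, at 7330 bp. The region tkv-6 showed the opposite distribution, with percentiles of 65.9 in progenitor cells and 83.0 in ECs and no peak elsewhere. Of the 4 start sites of tkv, the one at 5237362 was under a peak in 4 libraries, the most distal at 5271384 in progenitor cells, EEs and Pros-depleted EEs, the one at 5242620 in EEs alone, and the one at 5244139 in none. At the most distal one the promoter region tkv-9 also had a peak in ECs, at a percentile of 56.1. That peak ended at 5271380, just short of the start site.

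The other type I receptor, sax (chr2R:7806484-7810067, plus strand), and the type II receptor put (chr3R:14619030-14625703, minus strand) had their start sites under a peak in the 4 deeper libraries. Both start sites of sax lay in sax-1, which ranked at 70.3 in progenitor cells, 79.9 in ECs, 71.2 in EEs and 73.8 in Pros-depleted EEs. The summit in EEs lay 64 bp from the start site of Nop17l and 854 bp from that of sax. In progenitor cells, ECs and Pros-depleted EEs the summits lay 316, 317 and 22 bp from a sax start site. The 2 regions downstream of sax, sax-2 and sax-3, lay nearer to the start site of puml, and like sax-1 they had no peak in Ttk-depleted ECs. The percentile of sax-3 was 28.0 in progenitor cells, 59.3 in ECs, 22.2 in EEs and, after Pros depletion, 63.2. The region put-1, the only one of put, ranked at 86.2 in progenitor cells, 76.1 in ECs, 86.8 in EEs, 46.6 in Ttk-depleted ECs and 82.7 in Pros-depleted EEs. In Ttk-depleted ECs its peak lay 1185 bp from the start site.

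Mad (chr2L:3146056-3159643, minus strand), the Smad phosphorylated by the receptors, had 7 regions. The intronic region Mad-3 ranked at 88.1 in progenitor cells and 96.6 in ECs and had no peak in EEs. It had a peak at a percentile of 45.3 in Pros-depleted EEs and at 72.4 in Ttk-depleted ECs. The summit counts at Mad-3 were 358 fragments in progenitor cells, 204 in ECs, 10 in Ttk-depleted ECs and 40 in Pros-depleted EEs. The region Mad-5, in the first intron next to the distal start site at 3159643, had a peak in all 5 libraries with percentiles of 76.7 in progenitor cells, 78.5 in ECs, 90.3 in EEs, 98.6 in Ttk-depleted ECs and 95.4 in Pros-depleted EEs. No other region of these genes ranked higher in Ttk-depleted ECs. The summit of Mad-5 in ECs lay 158 bp from the distal start site, and in the other libraries between 870 and 900 bp from it. The percentile of ECs is therefore that of a summit elsewhere in the region. Both start sites of Mad lay under a peak in progenitor cells, EEs and Pros-depleted EEs, and in ECs the distal one did. The regions Mad-1 and Mad-2 lay nearest to the start site of ND-B14.5B, Mad-6 to that of gkt and Mad-7 to that of Hydr2.

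Med (chr3R:31611046-31615375, plus strand) encodes the Smad partner common to the BMP and Activin branches. None of its 5 regions had Med as the nearest start site, and the start site at 31611046 was under no peak in any library. The highest-ranked region, Med-1, lay 3639 bp upstream, inside CycG, with percentiles of 94.95 in progenitor cells, 99.1 in ECs, 94.0 in EEs, 45.5 in Ttk-depleted ECs and 94.3 in Pros-depleted EEs. Med-2, in an exon of Med, had peaks in progenitor cells at a percentile of 3.32 and in ECs at 52.4. The 3 regions downstream lay nearest to the start sites of CG1792 and pasha.

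The zinc finger factor shn (chr2R:11159086-11217394, plus strand), which joins the Smads at silencers, had 13 regions, 10 of them with a peak in all 3 normal cell types and 6 in all 5 libraries. Its promoter region shn-1, at the start site at 11173803, ranked at 92.9 in progenitor cells, 96.5 in ECs, 93.5 in EEs, 88.0 in Ttk-depleted ECs and 95.8 in Pros-depleted EEs. The order of the cell types was not the same at all intronic regions, as 2 of them with opposite orders of EEs and ECs show. At shn-9 the percentile was 57.4 in progenitor cells, 87.8 in ECs, 24.4 in EEs, 70.8 in Ttk-depleted ECs and 32.9 in Pros-depleted EEs. At shn-11, further along the gene, it was 5.79 in progenitor cells, 0.199 in ECs, 52.0 in EEs and, after Pros depletion, 57.2, with no peak in Ttk-depleted ECs. The local background at shn-11 was high, at 8.94, 4.31, 5.51 and 6.53 times the lowest of these 4 libraries, in the same order. Ranked by -log10 p, shn-11 stood at 42.2 in progenitor cells, 35.0 in ECs, 87.9 in EEs and 93.0 in Pros-depleted EEs. EEs and Pros-depleted EEs were thus below ECs at shn-9 and above them at shn-11. The region shn-4 had peaks in EEs and Pros-depleted EEs alone, and shn-5 had a peak in each normal cell type but in neither depleted population.

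The repressor gene brk (chrX:7307939-7311132, plus strand) had 4 regions, 3 of them with a peak in all 5 libraries. Its promoter region brk-3 had a fold enrichment of 7.65 in progenitor cells, 6.88 in ECs, 7.71 in EEs, 7.64 in Ttk-depleted ECs and 6.26 in Pros-depleted EEs. The percentiles were 75.7 in progenitor cells, 94.8 in ECs, 92.6 in EEs, 91.8 in Ttk-depleted ECs and 83.9 in Pros-depleted EEs. This was the only one of the 23 start sites of the 10 genes that lay under a peak in Ttk-depleted ECs. The summit of brk-3 held 870 fragments in progenitor cells, 464 in ECs, 309 in EEs, 24 in Ttk-depleted ECs and 257 in Pros-depleted EEs, over a high local background. That background was 9.07 times the lowest of the library in progenitor cells, 4.47 times in ECs, 3.95 times in EEs, 5.19 times in Pros-depleted EEs and 5.38 times in Ttk-depleted ECs, where the median over all peaks was between 1.17 and 1.67 times. Ranked by -log10 p in place of fold enrichment, brk-3 stood at 99.5 in progenitor cells, 99.7 in ECs, 99.6 in EEs, 98.8 in Ttk-depleted ECs and 99.0 in Pros-depleted EEs. Upstream, brk-2 ranked at 29.2 in progenitor cells, 69.5 in ECs, 63.1 in EEs, 37.6 in Ttk-depleted ECs and 46.1 in Pros-depleted EEs, and brk-1 had no peak in EEs or Ttk-depleted ECs. These upstream regions lie within the overlapping gene CG1677.

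Dad (chr3R:17054007-17070408, plus strand), an inhibitory Smad that is itself induced by the pathway, had 8 regions. The promoter region Dad-1 ranked at 56.8 in progenitor cells, 73.9 in ECs, 81.1 in EEs, 7.28 in Ttk-depleted ECs and 70.7 in Pros-depleted EEs. The intronic region Dad-5 was higher in most libraries, at 93.1 in progenitor cells, 97.1 in ECs, 78.6 in EEs, 94.2 in Ttk-depleted ECs and 93.2 in Pros-depleted EEs. The start site nearest to Dad-5 was that of Ns1, at 7272 bp. At the intronic Dad-2 the percentile was 75.7 in progenitor cells, 90.4 in ECs, 54.7 in EEs, 80.7 in Ttk-depleted ECs and 64.0 in Pros-depleted EEs. At Dad-5 and Dad-2 EEs were the lowest of the 5, whereas at Dad-1 they were the highest. The other intronic regions did not share this order. Dad-3 ranked at 39.9 in progenitor cells, 66.9 in ECs, 46.5 in EEs and 57.0 in Pros-depleted EEs. Dad-6, nearest to the start site of Ns1, had peaks in EEs at 39.7 and in progenitor cells at 16.0 alone. Dad-4 had peaks in EEs at a percentile of 39.8 and in Pros-depleted EEs at 1.10, and Dad-8, downstream near Keap1 and mRpS11, had one in EEs alone.

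**Figure D2:**
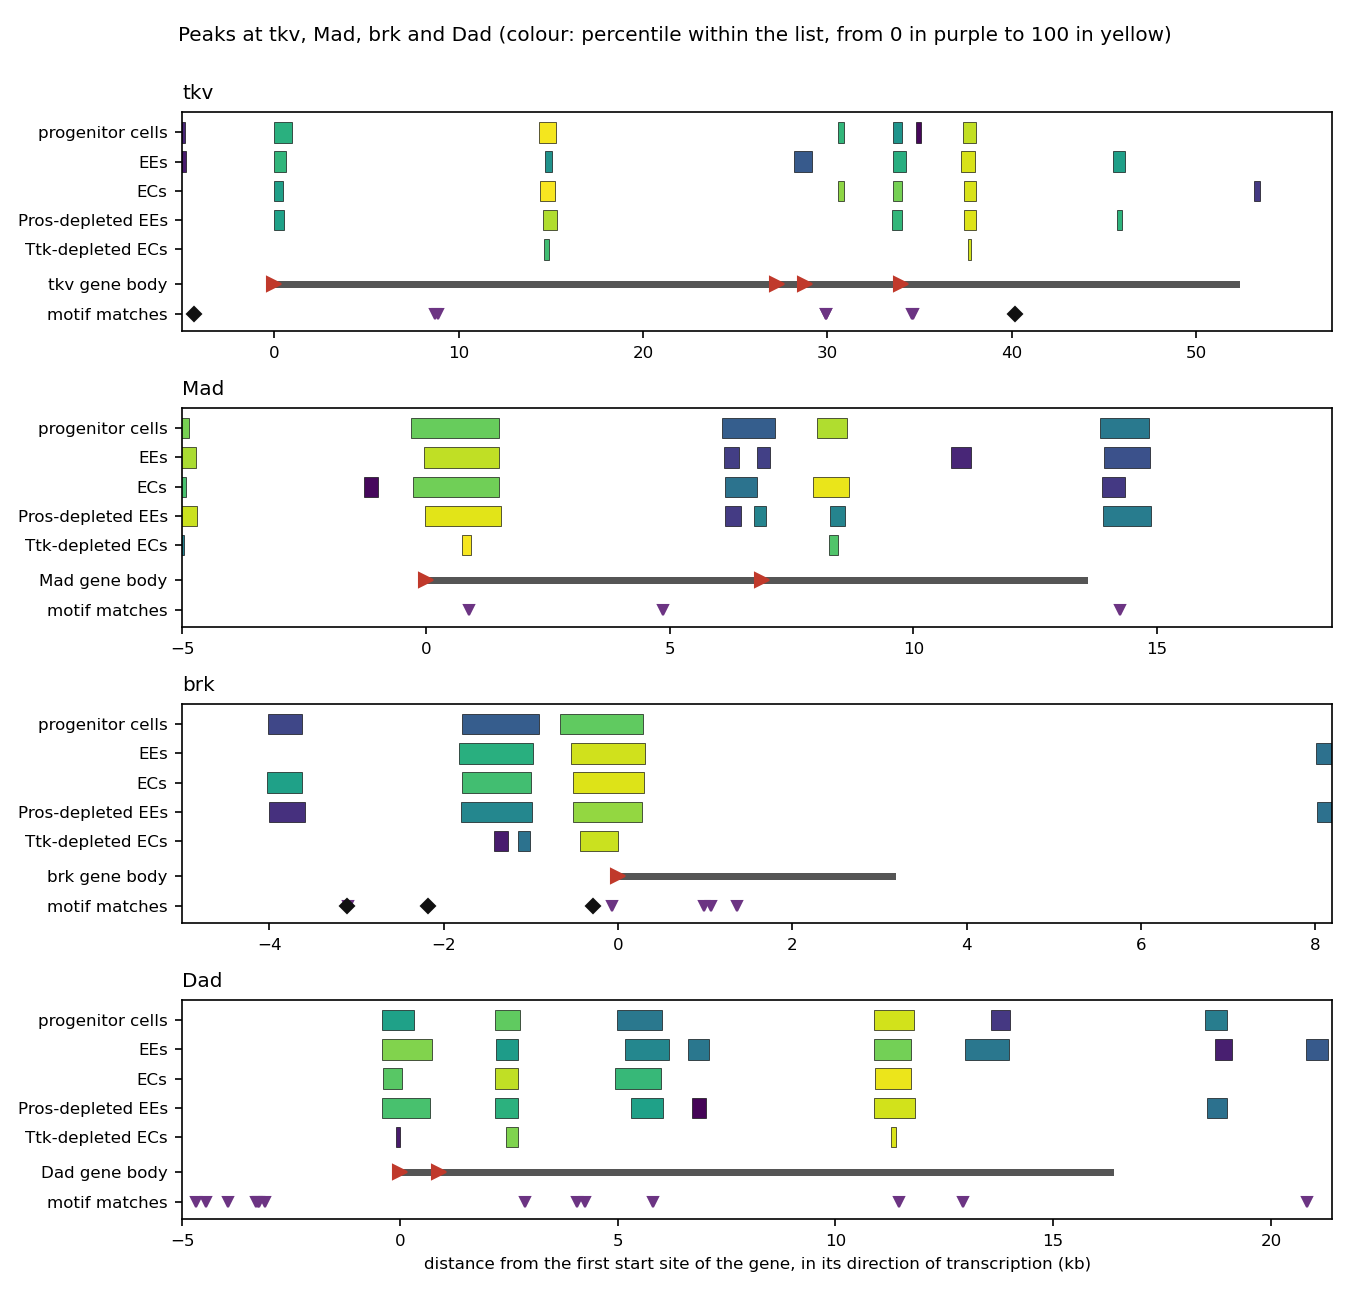
Peaks at tkv, Mad, brk and Dad in the 5 libraries, plotted by distance from the first start site in kb along the direction of transcription and coloured by the percentile of their fold enrichment. Grey bars are gene bodies, red arrowheads start sites, purple triangles Mad matches and black diamonds silencer matches. Peaks at the brk start site are present in all 5 libraries, and the Mad-3 peak, about 8 kb into the Mad gene, is missing in EEs.

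Start sites were compared next. At least 1 start site lay under a peak for 9 of 10 genes in progenitor cells (background 42%), 8 in ECs (29.2%), 8 in EEs (38.4%), 1 in Ttk-depleted ECs (4.8%) and 9 in Pros-depleted EEs (35.8%). Several members have more than 1 start site, which raises this count. Of the 23 start sites, 14 were under a peak in progenitor cells, 10 in ECs, 12 in EEs, 1 in Ttk-depleted ECs and 12 in Pros-depleted EEs. The share over all annotated start sites was not computed, so these counts have no background. They also depend on peak width. In Ttk-depleted ECs a peak ended at 17053999 beside the Dad start site at 17054007, and another at 11173773 beside the shn start site at 11173803. Regions at the start sites of the members were shared by the 3 normal cell types in 11 of 13 cases (84.6%, interval 57.8 to 95.7), intronic regions in 14 of 20, regions downstream in 6 of 12, regions upstream in 3 of 6 and exonic regions in 0 of 5. Shares by place were not computed over all regions. The exonic regions dpp-3, tkv-4, Mad-2, Med-2 and shn-12 had highest percentiles of 26.2, 1.76, 10.8, 52.4 and 22.1.

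Since regions near start sites are shared more often in general, the 56 regions were divided by their distance from any protein-coding start site. Within 500 bp, 15 of 21 were shared by the 3 normal cell types (71.4%, interval 50.04 to 86.2), beside 56.4% of all such regions. Farther away, 19 of 35 were (54.3%, interval 38.2 to 69.5), beside 22.6%. Among all regions in gene windows of the members' size range the share was 38.5%. The difference from the background was thus larger away from start sites, and no test was made of it. With each library limited to its 3269 strongest peaks, 42.3% of the member regions were shared by the 3 normal cell types (interval 25.5 to 61.1), and the share of all regions, 31.6%, lay inside that interval. The remaining member regions had peaks in EEs alone in 6 cases (background 15.4%), in ECs alone in 5 (19.3%), in progenitor cells alone in 2 (8.62%), in progenitor cells and EEs in 5 (7.92%) and in progenitor cells and ECs in 4 (10.5%). None was shared by EEs and ECs without progenitor cells, a class that held 1.88% of all regions.

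Differences in rank between the cell types were then counted, with a region past a step of 50 percentile points called higher and a region without a peak set to 0. ECs were higher than EEs at 7 regions (dpp-1, tkv-6, Mad-3, Med-2, shn-2, shn-9 and brk-1), 12.5% of the members beside 8.69% of all regions. EEs were higher than ECs at 2 regions, tkv-2 and shn-11, beside 7.8%. Progenitor cells were higher than EEs at dpp-1, tkv-6 and Mad-3 (background 6.84%), and EEs were higher than progenitor cells at tkv-2 (6.56%). No member region differed by this step between progenitor cells and ECs, in either direction, where 1.11% of all regions were higher in ECs and 1.98% in progenitor cells. At a step of 30 points, chosen after seeing the data, ECs were higher than EEs at 12 regions (19.2%) and lower at 4 (14.7%), progenitor cells were higher than EEs at 7 (13.5%) and lower at 4 (12.8%), and ECs were higher than progenitor cells at 5 (9.27%) and lower at 3 (6.94%). These counts are small, and no test was made of them. Over the 56 regions Pearson's r of the percentiles was 0.84 between progenitor cells and ECs, 0.66 between progenitor cells and EEs and 0.60 between EEs and ECs, where all 15196 regions gave 0.80, 0.56 and 0.45. These values are descriptions across regions, which share the libraries and their depth.

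**Figure D3:**
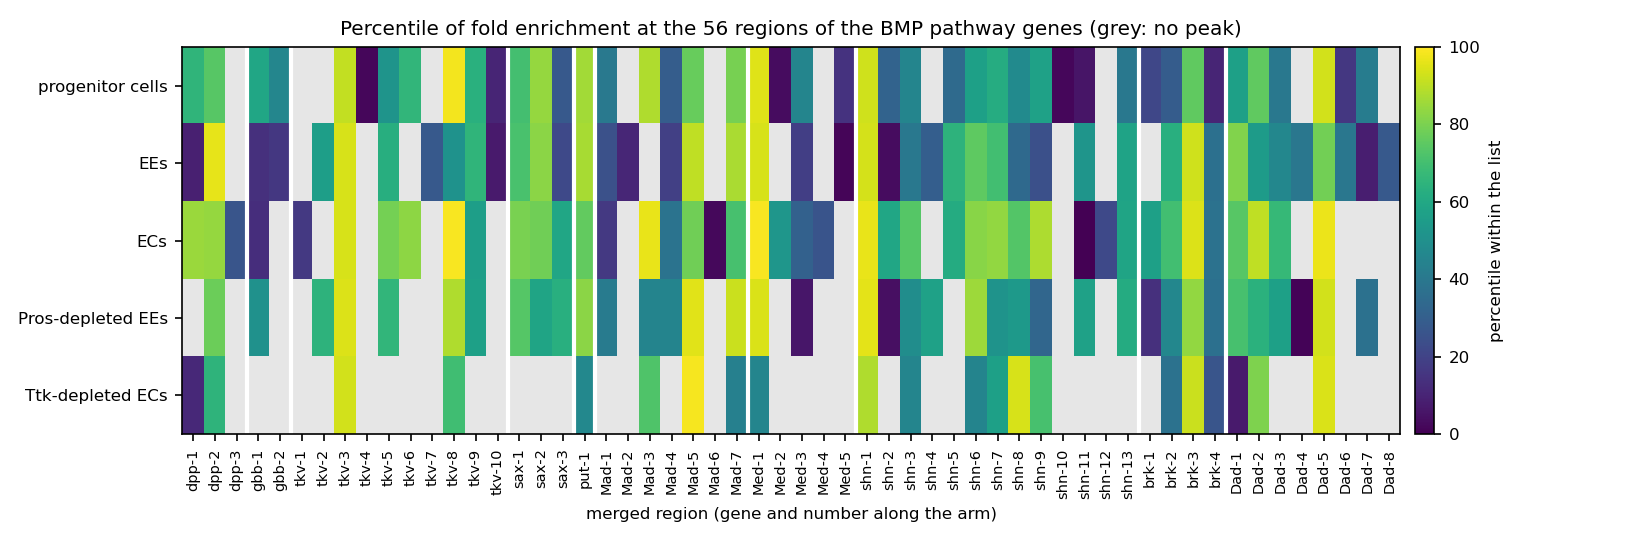
Percentile of fold enrichment (colour, 0 to 100, within the list of each library) at the 56 merged regions, by gene along the horizontal axis and by library along the vertical axis, with grey where there was no peak. The regions tkv-3, shn-1, brk-3 and Dad-5 are high in all 5 rows, dpp-1 and Mad-3 are high in progenitor cells and ECs, and most of the row of Ttk-depleted ECs is grey.

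The comparison of cells before and after depletion asks how much of the accessible chromatin is kept when one cell type takes on features of another. Of the 45 EE peaks at these genes, 36 overlapped a peak of Pros-depleted EEs by at least 1 bp (80.0%, interval 66.2 to 89.1), near the 76.2% of all EE peaks. No region was higher in Pros-depleted EEs than in EEs by 50 points (background 2.24%), and shn-5 was lower by that step (3.2%). By 30 points, 4 regions were higher (5.96%) and 3 lower (8.79%). Of the 6 regions that EEs did not share with progenitor cells or ECs, 3 had a peak in Pros-depleted EEs as well, namely tkv-2, shn-4 and Dad-4, beside 36.8% of all such regions. Of the 5 regions shared by progenitor cells and EEs without ECs, 1 had a peak in Pros-depleted EEs (interval 3.62% to 62.4%), beside 72.3%. Mad-3, with peaks in progenitor cells and ECs but not in EEs, had one after Pros depletion, as did brk-1, which makes 2 of the 4 regions of that class beside 38.1% of all. Conversely, dpp-1 and shn-5 were the 2 of the 34 regions shared by all normal cell types that had no peak in Pros-depleted EEs, where 95.5% of all such regions kept one and 94.1% of the members did.

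For Ttk depletion, 20 of the 44 EC peaks overlapped a peak of Ttk-depleted ECs (45.5%, interval 31.7 to 59.9), beside 23% of all EC peaks. In the other direction, all 24 peaks of Ttk-depleted ECs at these genes overlapped an EC peak and a progenitor peak, and 22 overlapped an EE peak. The same shares over all peaks of Ttk-depleted ECs were not computed, so these counts cannot be read as particular to the BMP genes. Ttk-depleted ECs had no peak at the 6 regions of EEs alone, nor at the 5 of ECs alone, where 2.99% and 1.08% of all regions of these classes had one, so these counts are near the background. A peak in Ttk-depleted ECs was found at 20 of the 34 regions shared by the 3 normal cell types (58.8%, interval 42.2 to 73.6), beside 38.6%. No member region was higher in Ttk-depleted ECs than in ECs by 50 points (background 1.13%), and 15 were lower (background 21.3%), 26.8% of the members. By 30 points, 0 were higher (2.24%) and 19 lower (36.2%). In all, 19 regions had a peak in all 5 libraries (33.9%, interval 22.9 to 47.0), beside 12.9% of all regions. These were dpp-2, tkv-3, tkv-8, put-1, Mad-5, Mad-7, Med-1, brk-2, brk-3, brk-4, Dad-1, Dad-2 and Dad-5 and 6 regions of shn.

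**Figure D4:**
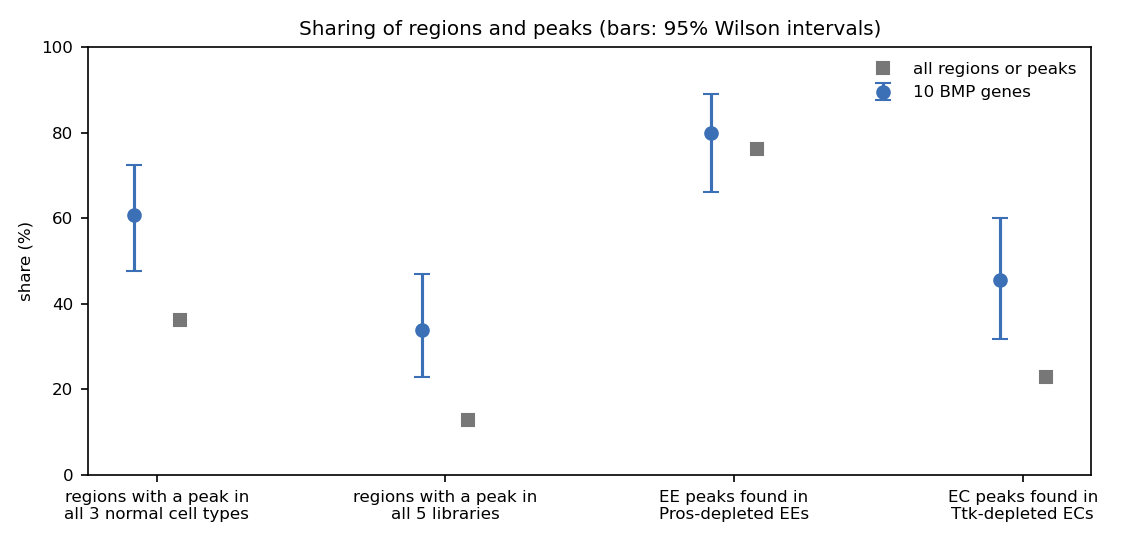
Share in percent (vertical axis) of regions or peaks that were shared, for the 10 BMP genes (blue points with 95% Wilson intervals) and for all regions or peaks (grey squares). The BMP share was 60.7% beside 36.3% for the 3 normal cell types, 33.9% beside 12.9% for all 5 libraries, 80.0% beside 76.2% for EE peaks after Pros depletion and 45.5% beside 23% for EC peaks after Ttk depletion. The EC peaks of the BMP genes rank higher in their list than EC peaks in general.

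The motifs printed above were counted in 300 bp around the summit of every region. The Mad motif was present in 4 of 56 member regions (7.14%, interval 2.81 to 17.0), at dpp-2, Mad-5, shn-4 and Dad-5, beside 5.98% of all regions. The Brinker motif was present in 21 (37.5%, interval 26.0 to 50.6), beside 35.7%. The silencer motif was present in 1, brk-3, beside 0.243% or 37 of all regions. The shares of the first 2 motifs were near the background. The silencer match at brk-3 (chrX:7307656-7307671) lay 283 bp upstream of the brk start site, inside a peak in each of the 5 libraries, and a Mad match lay 70 bp upstream of the same start site. At dpp-2, 2 overlapping Mad matches lay 81 and 84 bp downstream of the start site at 2454737. Over the whole windows of the 10 genes, a count added after the data were seen, there were 9 silencer matches, 3 of them in a region (33.3%), where 12.3% of the 804 matches on the chromosome arms lay in one. For the Mad motif 14 of 64 matches lay in a region (21.9%, beside 13.7%), and for the Brinker motif 111 of 461 (24.1%, beside 10.8%), so that all 3 motifs had a higher share in these windows. These windows also held more peaks per 10 kb than the median gene window, which by itself places more of any sequence in regions. The shares were not adjusted for this, so they do not show a preference of the motifs for regions. Besides brk-3, the silencer matches in a region were in Med-1, where a Mad match overlapped, and in shn-11. The 2 silencer matches farther upstream of brk, 2177 and 3109 bp from the start site, lay outside the peaks. A match describes the letters and was not tested for binding.

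Other genes of the pathway were counted under the same rule. Of 25 such genes, those with a peak numbered 22 in progenitor cells, 21 in ECs, 22 in EEs, 13 in Ttk-depleted ECs and 22 in Pros-depleted EEs, against the backgrounds of 76.5%, 80.3%, 76.5%, 31.9% and 74.4%. The ligands scw and mav and the protease gene tld had a peak in no library. The type II receptor wit had 3 peaks in progenitor cells, 4 in ECs, 3 in EEs, 1 in Ttk-depleted ECs and 3 in Pros-depleted EEs. Among the extracellular modulators, 8 of 9 genes had a peak in each of the 4 deeper libraries and 5 in Ttk-depleted ECs. They include sog, an antagonist of the ligands, with 5 peaks in progenitor cells, 5 in ECs, 4 in EEs, 4 in Ttk-depleted ECs and 5 in Pros-depleted EEs. All 4 target genes listed (bi, salm, salr and vg) had a peak in the 4 deeper libraries, and 3 of them in Ttk-depleted ECs. The gene sbb, also known as master of thickveins and a regulator of tkv in the wing, had 6 peaks in progenitor cells, 7 in ECs, 7 in EEs, 10 in Ttk-depleted ECs and 8 in Pros-depleted EEs. Of the 7 genes of the Activin branch, those with a peak numbered 6 in progenitor cells, 5 in ECs, 6 in EEs, 3 in Ttk-depleted ECs and 6 in Pros-depleted EEs.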

How the data were processed

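ATAC-seq peaks of 5 sorted midgut populations, 1 library each, were analysed. According to the labels and methods, paired-end reads of 150 bp were trimmed (Cutadapt) and aligned to BDGP6 by bowtie2 (version 2.2.4 in the labels, another in the methods), PCR duplicates, multimapped reads and reads in blacklisted regions were discarded, and peaks were called with MACS3, whose version and settings are not given in the sources used here. Per peak, the deposited lists give the fold enrichment over background. The -log10 p and -log10 q were deposited by the authors as MACS3 computed them, and all peaks had a q under 0.05. Reads and signal tracks were not used here. The names of the peaks carry replicate marks and, for progenitor cells, the mark "5w", which the sources do not explain, so another age of that library is possible.

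Peaks on 6 chromosome arms were kept, which left out 25 to 108 per library. Genes and start sites came from Ensembl release 115 (BDGP6) and sequences from RefSeq. A peak counted at a gene if it overlapped the gene body with 5 kb to each side. Peaks overlapping by at least 1 bp in any library were merged into regions, whose parts can reach past a gene's window, so that peaks at genes and libraries at regions can differ by a few. A region was at the promoter if its summit lay within 500 bp of a start site of the member. Nearest start sites were sought among protein-coding genes alone, so a region at another kind of gene is not marked as such. The number of fragments at a summit and its local background were solved from the fold enrichment (with MACS's pseudocount of 1) and the Poisson -log10 p, for 100% of peaks. Functions were tested on simulated lists. Tools were Python 3.11.15 with pandas 2.3.3, numpy 2.4.6, matplotlib 3.10.9 and SciPy 1.17.1.

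No test between populations was possible with 1 library each. Shares carry 95% Wilson intervals and stand beside the share of all genes, peaks or regions. The genes named were the 10 members, the neighbours whose start site was nearest to a peak, and listed pathway genes (with Dl and mtv under the annotation's names Delta and sbb), and the members, lists and tests were chosen with earlier results of these data known. The step of 50 percentile points was chosen after seeing the data. Alternatives were stricter lists (-log10 q from 5 or from 10 upwards), lists of equal length, other gene windows, merging within 250 bp, overlap at the summit or of at least 50% of each peak, ranks by -log10 p and motif windows of 200 bp.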

Additional observations from a re-analysis of the deposited data

How the results depend on the processing

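No paired analysis was possible because each population had 1 library, which also left no replicate to leave out. Of 100 alternative values for counts and shares, 79 stayed within 1.5 times the count or within the interval of the share, and 21 moved. With each list limited to its 3269 strongest peaks, the BMP peaks fell to 16 in progenitor cells, 16 in EEs, 24 in ECs and 18 in Pros-depleted EEs, the share of regions with a peak in all 3 normal cell types to 42.3% (interval 25.5 to 61.1, 31.6% of all regions), and the share of EC peaks found in Ttk-depleted ECs rose to 79.2% (55.4% of all). Within 3 kb of start sites there were 27, 23, 26 and 21 BMP peaks in these 4 libraries, and 29, 26, 28 and 26 had a member's start site as the nearest. In Ttk-depleted ECs, 12 peaks at 5 genes remained at a -log10 q of at least 5 and 3 peaks at 3 genes at 10 or more, and the share of EC peaks found there was 31.4% (14.6% of all) and 10% (2.31% of all). It was 6.82% (1.98% of all) when 50% of each peak had to overlap. In each of these settings the BMP share stood above that of all peaks, and the part of the higher ranks of the BMP peaks of ECs in this was not tested. The counts of regions at a step of 30 points stand beside those at 50.

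Ranked by -log10 p, the strongest peak of a gene stood higher in 25 of 48 pairs of gene and library and lower in 23, with changes from -16.3 to 23.9 points. Among these pairs the largest rise was that of brk in progenitor cells. Regions that were not the strongest of their gene could move further, and no count was made of them. In progenitor cells brk-1 rose from 21.3 to 82.0 and brk-2 from 29.2 to 77.8, whereas tkv-9 fell from 63.3 to 49.9. With 8 fragments per median summit, an absent peak in Ttk-depleted ECs does not show closed chromatin. Peaks give presence, not signal, and peaks inside neighbouring genes may belong to them.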
